A study of Arabidopsis thaliana with 4 samples.

Results

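The circadian clock genes of Arabidopsis thaliana and their morning and evening outputs were taken from a table of gene levels in 4 organs. They were the 39 listed locus codes, found by an exact match of the gene name column, out of 34288 loci in the table. All 39 had a row, COR28 (AT4G33980) had a second short locus, which was at 0.682 FPKM in flowers and listed at 0 elsewhere, and 40 loci were found in all. RNA came from roots and leaves of plants aged 2 weeks on MS plates, and from flowers and siliques (seed pods) of plants aged 5 weeks in soil. All plants were wild type Col-0, raised at 22 °C in long days, with no treatment, and the growth protocol names the material listed as leaves as the aerial part of the seedling. There was 1 library per organ, so every value lacks a replicate error, no comparison could be tested and p-values are not used. The labels do not give the hour of harvest, so a difference between organs and a difference between harvest hours cannot be told apart, and neither can fewer cells that express a gene and less RNA per cell.

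The plant clock is a loop of regulators that peak one after another over the day. The MYB repressors CCA1 and LHY peak at dawn and hold back evening genes by binding a short promoter sequence, the evening element. The pseudo-response regulators (PRRs) then repress CCA1 and LHY in turn, from PRR9 in the morning to TOC1 in the evening. At night the evening complex of ELF3, ELF4 and LUX represses PRR9 and other day genes. RVE8 and its relatives are MYB proteins of the CCA1 kind that activate evening genes, together with the coactivators LNK1 and LNK2. By the usual time of their mRNA peak, 17 members were grouped as dawn genes, 13 as evening genes and 2 as day genes (PRR7 and PRR5), and 7 were given no phase.

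The promoter sequences of these groups differed in which clock motifs they held. The window ran from 250 bases before to 50 bases after the gene start of the RefSeq TAIR10.1 annotation, and both strands were searched. The evening element AAAATATCT was found in 9 of 13 evening members (69.2%), 3 of 17 dawn members (17.6%) and 2.82% of the 27443 windows of all protein-coding genes. The G-box CACGTG, a site of bZIP and bHLH factors, was found in 9 of 17 dawn members (52.9%), 3 of 13 evening members (23.1%) and 7.68% of all windows. The CCA1 binding site AAAAATCT occurred in 3 dawn members, 1 evening member and 7.88% of all windows. The LUX binding site, searched as GATACG or GATTCG, occurred in 4 dawn members, 2 evening members and 14.5% of all windows. None of the searched words contains another, and a match is a run of letters that was not tested for binding.

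The 250 bases before the start of 5 members are shown to let the dawn and evening promoters be compared. The dawn genes CCA1, at chr2:19245341-19245590 (plus strand), and LHY, at chr1:37872-38121 (minus strand), each held 1 G-box there and no evening element. Of the evening genes, TOC1, at chr5:24674713-24674962 (plus strand), held 1 evening element. LUX, at chr3:17182792-17183041 (plus strand), held 1 evening element and 1 G-box. The evening output GRP7, at chr2:9266558-9266807 (minus strand), held 3 evening elements. Sequences read 5′ to 3′ toward the gene, in TAIR10.1 coordinates counted from 1, and capitals mark a match to a searched motif on either strand.
CCA1: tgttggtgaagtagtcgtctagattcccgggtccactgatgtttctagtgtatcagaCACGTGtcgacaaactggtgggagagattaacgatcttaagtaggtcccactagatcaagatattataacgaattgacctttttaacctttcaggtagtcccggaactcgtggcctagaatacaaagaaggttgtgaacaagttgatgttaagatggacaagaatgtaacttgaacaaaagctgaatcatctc
LHY: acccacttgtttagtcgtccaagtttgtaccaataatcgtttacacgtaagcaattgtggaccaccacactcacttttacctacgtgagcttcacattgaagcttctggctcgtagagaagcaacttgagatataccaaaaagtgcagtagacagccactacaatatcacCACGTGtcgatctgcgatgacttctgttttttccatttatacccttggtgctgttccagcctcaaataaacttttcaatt
TOC1: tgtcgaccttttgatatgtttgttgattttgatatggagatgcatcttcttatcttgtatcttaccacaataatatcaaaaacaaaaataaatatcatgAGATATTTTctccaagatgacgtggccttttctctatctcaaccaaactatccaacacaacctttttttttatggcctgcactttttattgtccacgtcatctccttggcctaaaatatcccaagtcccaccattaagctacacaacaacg
LUX: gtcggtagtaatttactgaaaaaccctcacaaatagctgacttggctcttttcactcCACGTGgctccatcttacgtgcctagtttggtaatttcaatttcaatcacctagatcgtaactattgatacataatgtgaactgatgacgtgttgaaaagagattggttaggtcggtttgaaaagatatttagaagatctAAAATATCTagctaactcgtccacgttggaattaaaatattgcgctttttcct
GRP7: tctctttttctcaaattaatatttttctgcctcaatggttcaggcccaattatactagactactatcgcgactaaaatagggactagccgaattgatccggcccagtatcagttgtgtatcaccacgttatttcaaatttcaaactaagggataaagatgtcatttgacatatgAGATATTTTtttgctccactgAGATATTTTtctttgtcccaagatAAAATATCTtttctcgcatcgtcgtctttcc
In GRP7 the 3 evening elements began 76, 55 and 31 bases before the start. Other evening members with the element included FKF1 (2 copies), BOA, GRP8, COR28 and CAT3, and the dawn members with it were PRR9, RVE7 and COL2. The evening members without it in this window were PRR3, GI, ELF4 and ELF3.

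Values are FPKM, fragments mapped per kilobase and scaled to library size, as deposited. Ratios are log2 ratios of FPKM + 1, and a locus was called higher or lower at 2-fold, a log2 ratio of 1 or more either way. The organ labels were checked on 3 defining genes each. Roots held 374 FPKM of the iron transporter IRT1 and 141 of the Casparian strip protein CASP1, while leaves held 108 FPKM of the chloroplast regulator GLK1 and 3734 of the antenna gene LHCB2.1. For the floral identity gene AP3 flowers had 119.8 FPKM and siliques 79.0. The other flower genes differed more, PI with 241 in flowers and 2.89 in siliques, and GRP19 with 815 and 0.0804. For the seed coat gene BAN flowers had 10.5 and siliques 582. The other defining genes were also highest in their own organ. At an FPKM of at least 10, the lower end of the authors' interval was 0 for between 75.1% and 77.3% of loci in each library, so most values have no useful lower bound. From loci whose interval reached to 3 times the FPKM, which were read as single fragments, an FPKM of 1 corresponded to about 127 to 131 fragments per kilobase of locus.

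**Figure D1:**
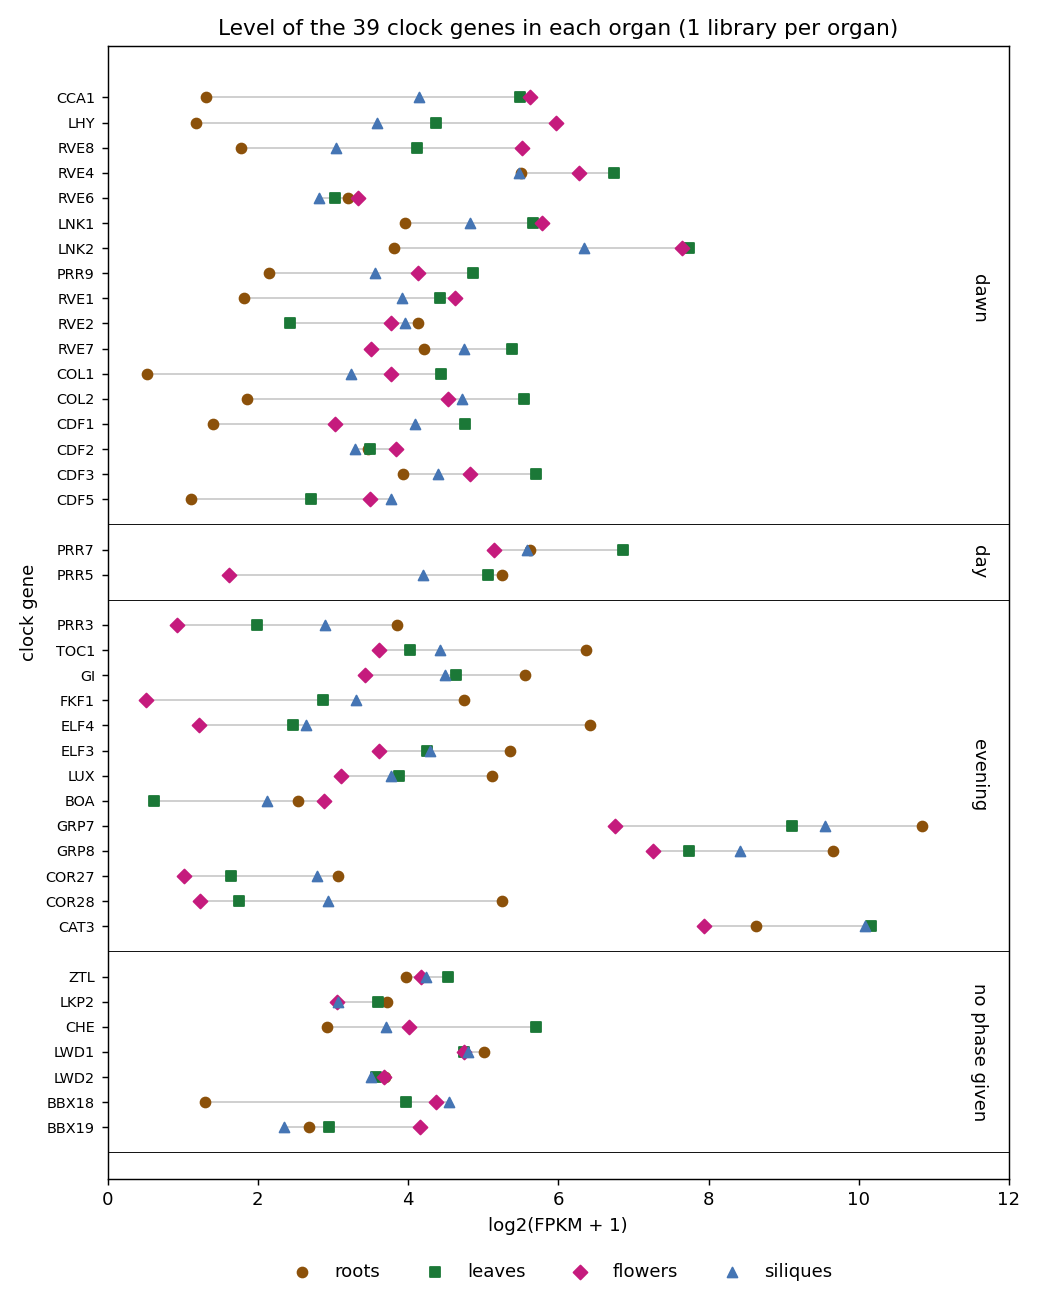
Level of each of the 39 clock genes as log2(FPKM + 1) on the horizontal axis, with 1 symbol per organ and the genes grouped by phase down the page. Root symbols lie at the low end for most dawn genes and at the high end for most evening genes, and flower symbols lie at the low end for 12 of 13 evening genes.

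Dawn and evening members ran in opposite directions in roots. In roots the dawn members had a median of 3.45 FPKM and the evening members 39.9. In leaves the medians were 26.1 FPKM for dawn and 13.7 for evening members, in flowers 22.1 and 7.61, and in siliques 14.5 and 12.7. On the log2(FPKM + 1) scale, the dawn median minus the evening median was -3.20 in roots against 0.88 in leaves, and 1.43 in flowers against 0.18 in siliques. The evening outputs GRP7, GRP8 and CAT3 stood above 100 FPKM in every organ. With each gene set against its own mean over the 4 organs, dawn members lay at a median of -1.66 in roots and 0.75 in leaves, with 0.46 in flowers and -0.05 in siliques, and evening members at 1.38, -0.43, -1.11 and 0.14 in the same order. The sign for siliques turned with this centring (-0.19), so siliques gave no stable order of the groups. The medians of all 23477 compared loci on the centred scale were 0.11, -0.31, 0.15 and -0.08 in the same order of organs.

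**Figure D2:**
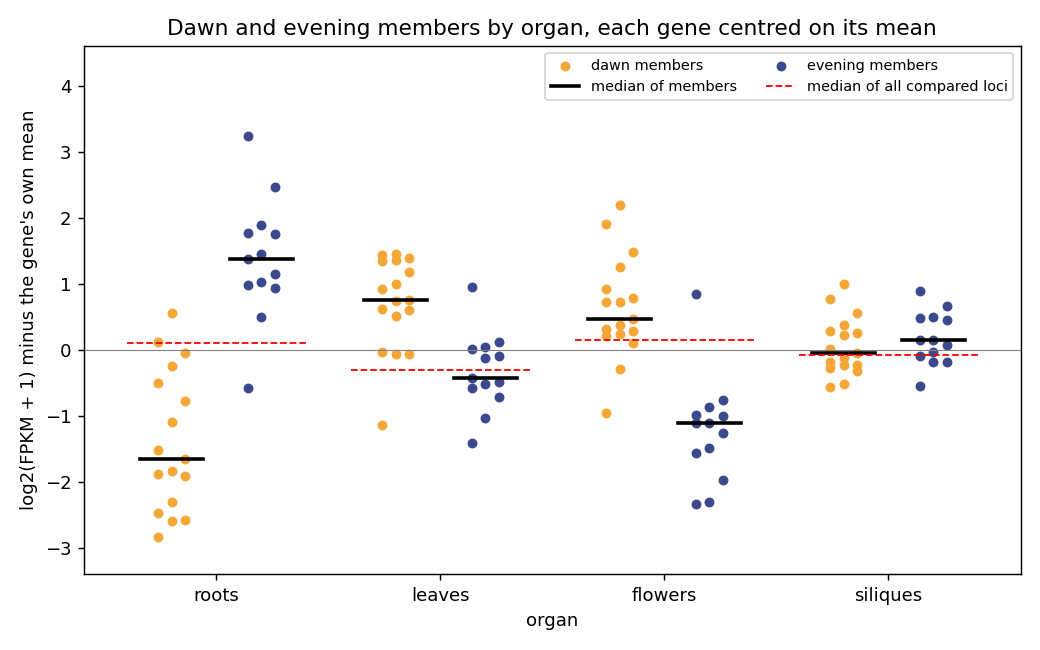
Each point is a dawn or an evening member in one organ, as log2(FPKM + 1) minus the gene's own mean over the 4 organs. Black bars are medians of the members and red dashed lines medians of all compared loci; the dawn and evening points have medians of -1.66 and 1.38 in roots and overlap widely in siliques.

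The order of organs was close to uniform among evening members. Of the 13, 11 were highest in roots (39.3% of all compared loci) and 12 were lowest in flowers (8.33% of loci). Both held for 11 members, against 5.87% of loci. The exceptions were BOA, highest in flowers and lowest in leaves, and CAT3, highest in leaves. Dawn members were lowest in roots in 12 of 17 cases (27.8% of loci), highest in leaves in 8 (13.7%) and highest in flowers in 7 (31.6%). After median-of-ratios scaling, applied to these counts after seeing the data, the evening counts were again 11 highest in roots and 12 lowest in flowers, beside 31.8% and 19.3% of loci. With the same scaling 14 dawn members were lowest in roots (35.5% of loci), 13 were highest in leaves (25.7% of loci) and 2 were highest in flowers (21.4%). The order of leaves and flowers among dawn members therefore depends on the scaling.

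Roots and leaves shared age and medium. Of 17 dawn members, 14 were lower in roots (13.4% of all compared loci) and 1 was higher (23.6% of loci), with a median log2 ratio of -2.34. Of 13 evening members, 11 were higher in roots and 1 was lower, with a median of 1.87. The median over all compared loci was 0.34. Median-of-ratios scaling shifted it by -0.34 in this pair, by -0.20 between flowers and siliques, by -0.17 between roots and siliques, by 0.38 between leaves and flowers and by 0.13 between leaves and siliques. With that scaling the dawn counts between roots and leaves were the same and 9 evening members were higher. At 4-fold, 9 dawn members were lower in roots (7.42% of loci) and 3 evening members were higher (9.09%). With the authors' intervals also separate, 3 dawn members were lower (0.733% of loci) and 1 evening member was higher (0.677%). The defining genes of leaves were below their leaf level in roots in 3 of 3 cases, which is what they were chosen for. Their summed level was 23.8 FPKM in roots against 4753 in leaves, with none at 0. This is also the direction of the dawn members in this pair, and a link between these genes and the dawn ratios was not tested.

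Flowers and siliques also shared age and medium. Of the 13 evening members 9 were lower in flowers (8.42% of loci) and 0 were higher (13.5% of loci), with a median of -1.43. Among dawn members 4 of 17 were higher in flowers and 2 lower, with a median of 0.55, against 0.19 over all compared loci. The 8 core dawn genes were all above 0, from 0.51 to 2.47, and the 9 dawn outputs were divided, 4 above 0 and 5 below. Together 12 of the 17 dawn members were above 0, beside 15446 of the 23477 compared loci. At 4-fold, 2 dawn members were higher in flowers (4.94% of loci) and 3 evening members lower (3.63%). With separate intervals, 3 dawn members were higher (0.226%) and 1 evening member lower (0.166%). Of the 3 defining genes of leaves, 2 were below their silique level in flowers, and GLK1 was above it, at 19.4 FPKM against 13.3. Their summed level was 857 FPKM in flowers against 2202 in siliques, mostly from LHCB2.1 (777 and 1758). This sum was lower in flowers, whereas the dawn median of 0.55 was above 0, the opposite direction. A link between these genes and the dawn ratios was not tested here either.

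**Figure D3:**
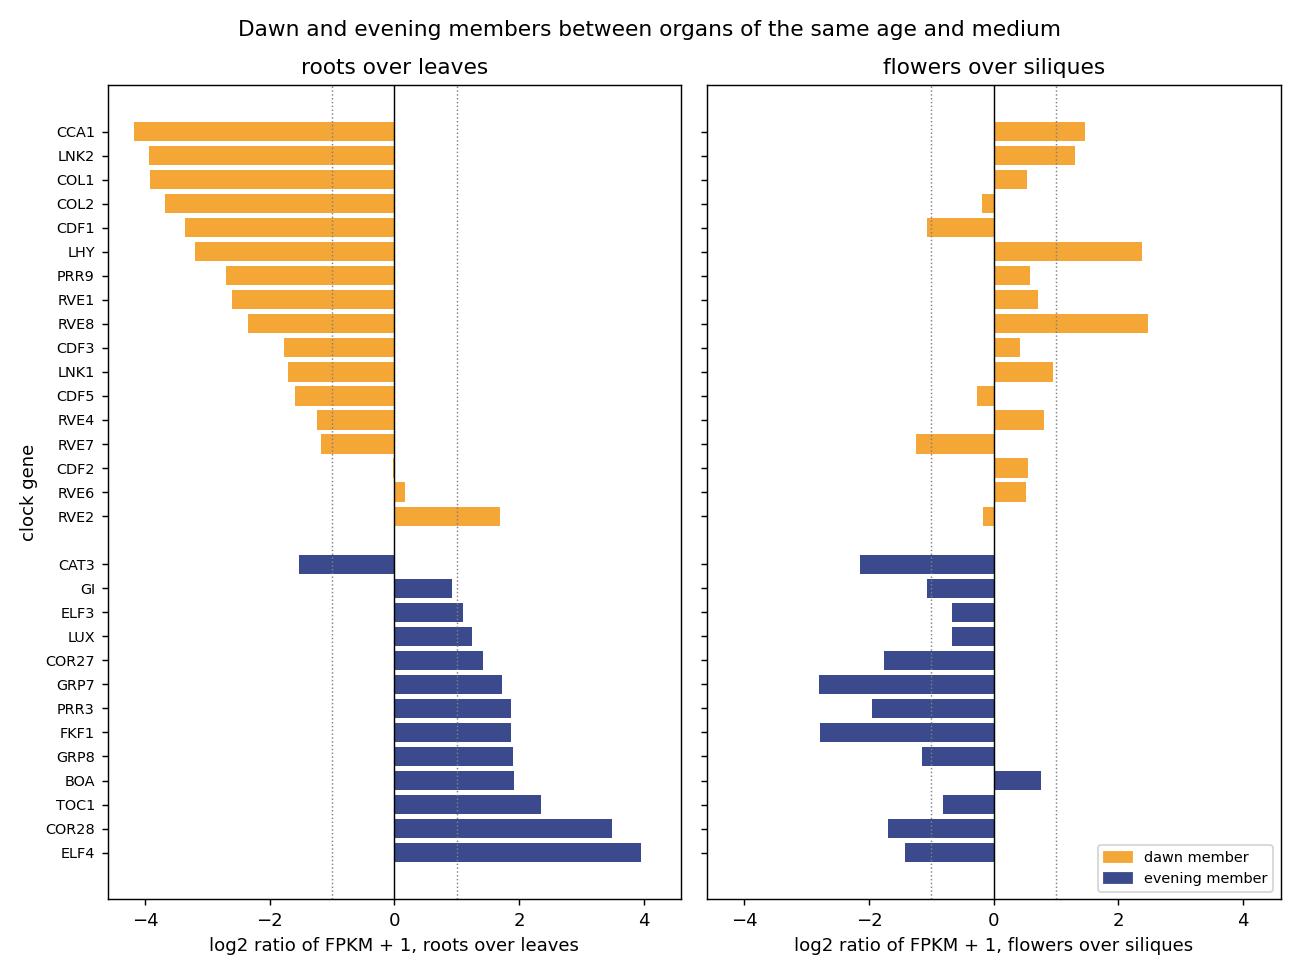
Log2 ratio of FPKM + 1 for each dawn member (orange) and evening member (blue), roots over leaves on the left and flowers over siliques on the right, in the same gene order. Dotted lines mark 2-fold; on the left 14 dawn members pass it below 0 and 11 evening members above 0, and on the right 9 evening members pass it below 0.

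The 4 other pairs change age and medium together with the organ and share libraries with each other. Between roots and flowers, 11 dawn members were lower in roots (23.8% of loci) and 0 higher, and 11 evening members were higher (16.5% of loci) and 0 lower. Their medians of -1.98 and 2.39 lay on opposite sides of the median over all loci of -0.05. With the authors' intervals also separate, 4 dawn members were lower in roots and 2 evening members higher. The share of all loci with separate intervals was not counted in these pairs. Between roots and siliques, 10 dawn members were lower in roots (19.8% of loci), and 9 evening members were higher (19.5%) with CAT3 lower. After scaling GI, ELF3 and GRP8 were no longer past 2-fold there. With separate intervals 2 dawn members were lower in roots than in siliques and 0 evening members were higher. Between leaves and flowers, 3 dawn members were higher in leaves (7.79% of loci) and 3 lower (21.6%), and 6 evening members were higher with BOA lower. Scaling turned the sign of 5 dawn members in that pair, among them CCA1 and LNK1. Between leaves and siliques, 7 dawn members were higher in leaves (8.4% of loci) and 2 lower (16.9%), and 3 evening members were lower and 0 higher.

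CCA1 (AT2G46830) and LHY (AT1G01060), the dawn repressors at the centre of the loop, were lowest in roots. CCA1 had 1.48 FPKM in roots against 44.0 in leaves, and 48.1 in flowers against 16.7 in siliques. LHY had 1.26 FPKM in roots and 19.7 in leaves, with 61.4 in flowers and 11.0 in siliques. Both were highest in flowers as deposited, by log2 ratios over siliques of 1.47 for CCA1 and 2.38 for LHY, but the sign of CCA1 between leaves and flowers turned after scaling. For CCA1, the interval in roots, 0 to 3.51 FPKM, lay below those in leaves (13.9 to 74.1), flowers (14.9 to 81.3) and siliques (4.76 to 28.7). For LHY, the interval in flowers, 31.8 to 91.0 FPKM, lay above those in all the other organs, whose highest upper end was 31.0 in leaves. CCA1 in leaves and flowers had overlapping intervals, so their order is not resolved.

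Among the activators related to CCA1, RVE8 (AT3G09600) followed the same order. It had 2.43 FPKM in roots against 16.4 in leaves, and 44.6 in flowers against 7.24 in siliques, a log2 ratio of 2.47 between flowers and siliques. Its interval in flowers, 17.2 to 72.1 FPKM, lay above those in siliques (0 to 15.6) and roots (0 to 5.39). RVE4 (AT5G02840) was higher throughout and varied less, at 44.2 FPKM in roots and 106 in leaves, with 76.5 in flowers and 43.4 in siliques. RVE6 (AT5G52660) was the flattest of the family, between 6.05 and 9.05 FPKM, and its root to leaf ratio of 0.17 changed sign after scaling.

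The coactivators LNK1 (AT5G64170) and LNK2 (AT3G54500) were low in roots too. LNK2 was the most abundant dawn member in leaves, flowers and siliques, with 13.1 FPKM in roots against 214 in leaves, and 199 in flowers against 80.1 in siliques. Its intervals separated roots (4.57 to 21.6 FPKM) from siliques (51.5 to 109), and siliques from both leaves (150 to 278) and flowers (140 to 259). LNK1 had 14.6 FPKM in roots and 49.9 in leaves, with 54.0 in flowers and 27.4 in siliques.

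**Figure D4:**
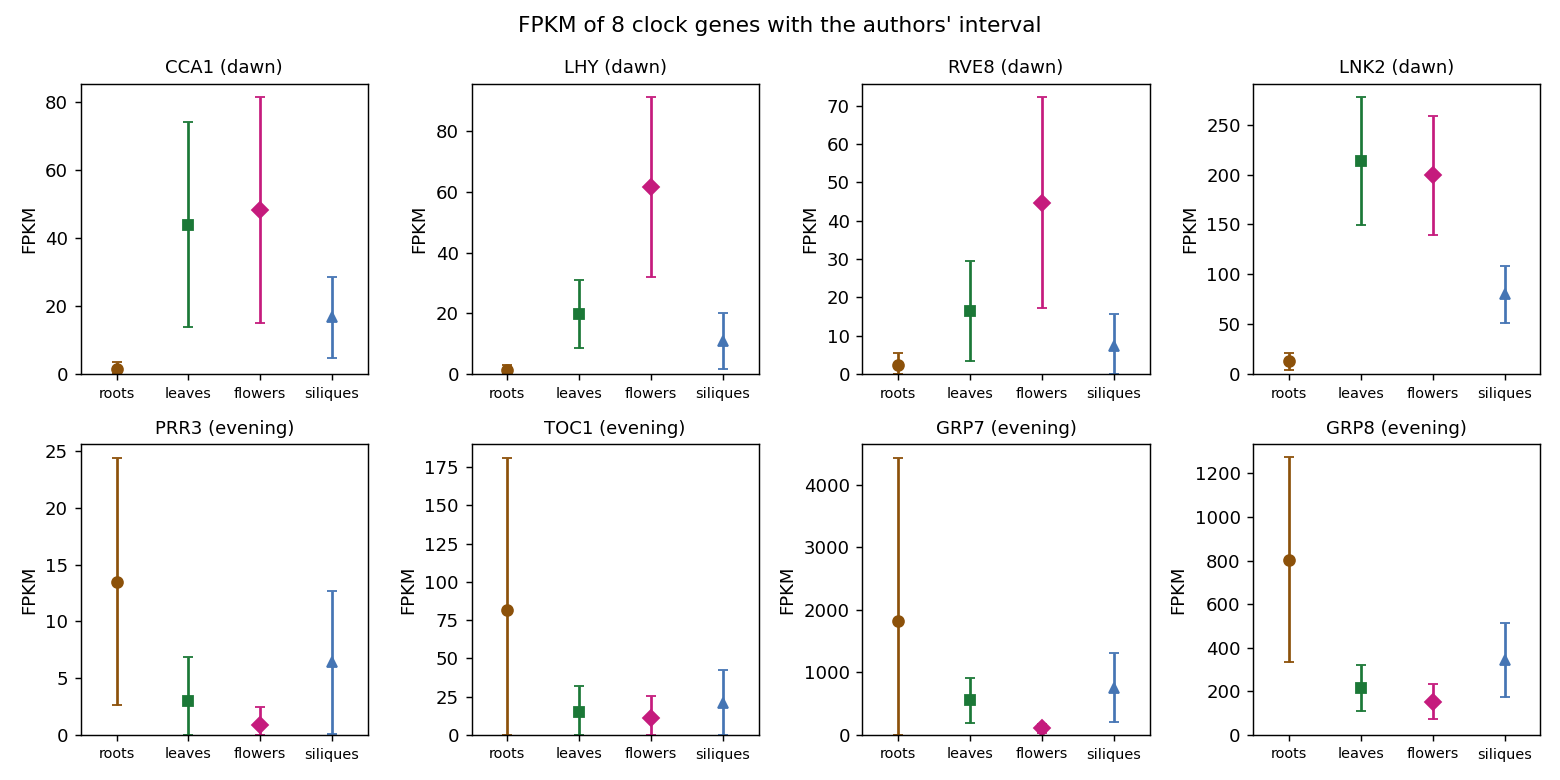
FPKM of 8 clock genes in each organ, with bars for the authors' interval, on a linear axis from 0 in each panel. They are the 7 members with separate intervals in at least 1 pair of organs, and TOC1, whose intervals overlap throughout; the root intervals of CCA1 and LNK2 lie below those of the other 3 organs.

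The pseudo-response regulators differed in their order of organs. PRR9 (AT2G46790), the morning member, had 3.45 FPKM in roots against 28.1 in leaves, and 16.6 in flowers against 10.8 in siliques. PRR7 (AT5G02810), which follows it, had 48.3 FPKM in roots and 115 in leaves, with 34.2 in flowers and 47.0 in siliques. PRR5 (AT5G24470), an afternoon repressor, had 37.2 FPKM in roots against 32.3 in leaves, and 2.07 in flowers against 17.4 in siliques. PRR9 and PRR7 were thus highest in leaves. Both day members, PRR7 and PRR5, were lowest in flowers (8.33% of loci), as were 12 of the 13 evening members. The root to leaf ratio of PRR5 turned sign after scaling. Next in phase, PRR3 (AT5G60100), which protects TOC1 from breakdown, had 13.5 FPKM in roots and 2.96 in leaves, with 0.905 in flowers and 6.41 in siliques. TOC1 (AT5G61380), the evening repressor of CCA1, had 81.7 FPKM in roots against 15.3 in leaves, and 11.3 in flowers against 20.6 in siliques. The root to leaf log2 ratio ran from -2.71 for PRR9 through -1.24 for PRR7 and 0.20 for PRR5 to 1.87 for PRR3 and 2.34 for TOC1. This is also the order in which the 5 genes are known to peak over the day. The root and leaf intervals of each of the 5 overlapped, so the order is not resolved, and a link to the harvest hour was not tested. The ratio of TOC1 to CCA1 in FPKM, without the added 1, was 55.3 in roots and 0.347 in leaves, with 0.234 in flowers and 1.23 in siliques. The interval of TOC1 reached down to 0 in every organ, and that of CCA1 did in roots, so these ratios are not well bounded.

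The 4 members of the evening complex group were called higher in roots than in leaves (23.6% of all compared loci), ELF3 and LUX only before scaling. ELF4 (AT2G40080) had the largest root to leaf ratio of the 39 members, 3.95, with 84.9 FPKM in roots against 4.55 in leaves, and 1.33 in flowers against 5.25 in siliques. ELF3 (AT2G25930), the scaffold of the complex, varied less, at 39.9 FPKM in roots and 18.0 in leaves, with 11.3 in flowers and 18.5 in siliques. LUX (AT3G46640), the DNA-binding subunit, had 33.8 FPKM in roots against 13.7 in leaves, and 7.61 in flowers against 12.7 in siliques. These 3 genes of one complex shared the order of roots first and flowers last. BOA (AT5G59570), the close relative of LUX, did not: it had 4.81 FPKM in roots and 0.540 in leaves, with 6.35 in flowers and 3.34 in siliques. LUX exceeded BOA by an FPKM ratio, without the added 1, of 25.4 in leaves and of 1.20 in flowers. BOA was below 1 FPKM in leaves and its interval reached 0 in every organ. In flowers the intervals of LUX and BOA both ran from 0 to 15.8 FPKM.

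GI (AT1G22770), a partner of the blue light receptors of the ZTL family, and FKF1 (AT1G68050), which with GI removes CDF repressors of flowering, were evening members of unequal range. GI had 46.2 FPKM in roots against 24.0 in leaves, and 9.74 in flowers against 21.5 in siliques. FKF1 had 25.7 FPKM in roots and 6.28 in leaves, with 0.425 in flowers and 8.86 in siliques, a log2 ratio of -2.79 between flowers and siliques. GI missed the 2-fold call between roots and leaves, at 0.92. ZTL (AT5G57360), which targets TOC1 for breakdown and whose mRNA is known to vary little over the day, lay between 14.7 FPKM in roots and 22.2 in leaves. LKP2 (AT2G18915), the third of that family, lay between 7.27 FPKM in flowers and 12.1 in roots. Neither ZTL nor LKP2 was called in either matched pair as deposited, but after scaling the root to leaf ratio of ZTL passed 2-fold, at -1.03 against -0.56 as deposited.

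The other members with no phase given divided into flat and variable genes. LWD1 (AT1G12910) and LWD2 (AT3G26640), WD-repeat proteins that promote the expression of morning clock genes, had the narrowest ranges of the 39, from 25.8 to 31.2 FPKM and from 10.3 to 11.9. CHE (AT5G08330), a TCP factor that represses CCA1, had 6.58 FPKM in roots against 50.9 in leaves, and 15.1 in flowers against 12.1 in siliques. Its root to leaf log2 ratio of -2.77 lay among those of the dawn members and below those of all evening members, the lowest at -1.53. As CHE was given no phase, it enters neither the dawn nor the evening counts. BBX18 (AT2G21320) and BBX19 (AT4G38960), B-box proteins of light signalling, differed from each other: BBX18 had 1.45 FPKM in roots and between 14.7 and 22.4 in the other organs, and BBX19 was highest in flowers at 16.9, against 4.09 in siliques.

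Dawn outputs were mostly lower in roots than in leaves and were mixed between flowers and siliques. Of the 9, 7 were called lower in roots than in leaves (13.4% of all compared loci) and 1 higher (23.6%), with a median of -1.77. COL1 (AT5G15850) and COL2 (AT3G02380), B-box relatives of the flowering regulator CONSTANS, were each lower in roots than in any other organ. COL1 had 0.434 FPKM in roots against 20.6 in leaves, and 12.7 in flowers against 8.48 in siliques. COL2 had 2.63 FPKM in roots against 45.8 in leaves, and 22.1 in flowers against 25.4 in siliques. RVE1 (AT5G17300), a MYB factor that links the clock to auxin, had 2.53 FPKM in roots and 20.6 in leaves, with 23.6 in flowers and 14.1 in siliques. Of the MYB factors RVE2 and RVE7, close relatives of CCA1, RVE2 (AT5G37260) was the single dawn member called higher in roots, at 16.6 FPKM, against 4.41 in leaves. RVE7 (AT1G18330) had 17.6 FPKM in roots against 40.9 in leaves, and 10.4 in flowers against 25.9 in siliques.

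The CDF genes, DOF repressors of CONSTANS, did not share one order of organs. CDF1 (AT5G62430) had 1.65 FPKM in roots and 26.1 in leaves, with 7.13 in flowers and 16.1 in siliques. CDF5 (AT1G69570) was low in roots at 1.15 FPKM and highest in siliques at 12.6, with 5.51 in leaves and 10.3 in flowers. CDF3 (AT3G47500) ranged from 14.3 FPKM in roots to 51.3 in leaves, and CDF2 (AT5G39660) stayed between 8.78 and 13.3. Only CDF1 and RVE7 among the dawn members were called lower in flowers than in siliques, at -1.07 and -1.24.

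Evening outputs were lowest in flowers in 5 of 5 cases (8.33% of all compared loci), and all 5 were called lower there than in siliques (8.42% of loci). With separate intervals only 1 of the 5, GRP7, was lower. GRP7 (AT2G21660) and GRP8 (AT4G39260), RNA-binding proteins that regulate their own splicing, were the most abundant members in roots. GRP7 had 1829 FPKM in roots against 551 in leaves, and 107 in flowers against 752 in siliques. GRP8 had 804 FPKM in roots against 214 in leaves, and 153 in flowers against 342 in siliques. GRP7 exceeded GRP8 in roots, leaves and siliques, by ratios of 2.20 to 2.58, and was below it in flowers (0.699). The intervals of GRP7 in flowers (37.5 to 176 FPKM) and siliques (201 to 1303) were separate, and so were those of GRP8 in roots (334 to 1273) and leaves (108 to 319). The interval of GRP7 in roots, 0 to 4426 FPKM, overlapped those of all other organs, so its place as highest there is not resolved.

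COR27 (AT5G42900) and COR28 (AT4G33980), cold-regulated repressors of clock genes, differed in range. COR28 had 37.0 FPKM in roots against 2.36 in leaves, and 1.34 in flowers against 6.61 in siliques, and COR27 had 7.39, 2.12, 1.03 and 5.89 in the same order. CAT3 (AT1G20620), the catalase that peaks in the evening, was the evening member that departed from the rest in roots, at 395 FPKM in roots and 1142 in leaves, with 245 in flowers and 1089 in siliques. The interval of CAT3 reached down to 0 in every organ. CAT2 (AT4G35090), the catalase of the morning, is not among the 39 and was chosen for this contrast after its values were seen: it had 162 FPKM in roots against 429 in leaves, and 218 in flowers against 187 in siliques. Both catalases were therefore lower in roots than in leaves, at log2 ratios of -1.53 for CAT3 and -1.40 for CAT2.

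Members with an evening element, whatever their phase, were not uniform between organs. There were 13 of them, 9 evening, 3 dawn and 1 day member, so a difference by element cannot be told apart from a difference by phase. Of the 13, 8 were called higher in roots than in leaves and 4 lower, with a median of 1.43, and the 26 without it had 4 higher and 14 lower, with a median of -1.24. Over all compared loci 23.6% were higher in roots and 13.4% lower. Between flowers and siliques, 0 of the 13 were higher in flowers and 8 lower, and of the 26 without the element 5 were higher and 4 lower, beside 13.5% and 8.42% of loci. Of the 13 members with a G-box, 4 were called higher in roots than in leaves and 8 lower, and of the 26 without it 8 were higher and 10 lower. The dawn members with an evening element, PRR9, RVE7 and COL2, were lower in roots. Of the evening members without one in this window, PRR3, ELF4 and ELF3 were called higher in roots as deposited and GI was not. ELF4 had the largest ratio.

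A further 26 genes tied to the clock were listed, and 25 of them could be compared. Between roots and leaves 4 were higher and 6 lower, beside 23.6% and 13.4% of all compared loci, and their median of 0.38 lay near that of all loci, 0.34. The 2 relatives of the LNK coactivators had the lowest ratios, LNK3 (AT3G12320) with 1.68 FPKM in roots against 54.4 in leaves, and LNK4 (AT5G06980) with 5.39 and 57.1, followed by RVE3 (AT1G01520) at -1.54 and FLORE (AT1G69572) at -1.50. The highest were CDF4 (AT2G34140), with 6.17 FPKM in roots and 0.299 in leaves, the evening histone demethylase JMJ30 (AT3G20810) at 1.34 and the ELF4 relatives EFL4 (AT1G17455) at 1.18 and EFL1 (AT2G29950) at 1.13. Between flowers and siliques 5 were higher and 0 lower, beside 13.5% and 8.42% of loci, with a median of 0.34 against 0.19 over all loci. The highest were EFL3 (AT2G06255) at 1.53, RVE3 at 1.42, JMJ30 at 1.19 and LNK4 at 1.12. JMJ30, though an evening gene, was therefore higher in flowers, at 15.4 FPKM, than in siliques, at 6.18, unlike 12 of the 13 evening members.

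Some values are shared with other loci. In 9 members (RVE8, LNK2, PRR7, LKP2, ELF3, LUX, RVE2, COL1 and CDF5) the interval given in the table also held another locus, and the table gives no strand. CDF5 and FLORE, a long noncoding RNA antisense to it, occupied the same interval (chromosome 1, 26161528 to 26163496) and had nearly the same values, FLORE at 1.38 FPKM in roots and 5.76 in leaves, with 9.74 in flowers and 12.1 in siliques. Reads of the one and the other cannot be told apart. COL1 shared its interval with AT5G15845, which had 0.657 FPKM in roots against 9.79 in leaves, and 6.01 in flowers against 3.88 in siliques. That interval also held CONSTANS (AT5G15840), between 0.400 and 1.11 FPKM. AT2G25940, in the interval of ELF3, had 6.44 FPKM in roots against 0.467 in leaves, the direction of ELF3. PRR9 shares 906 bases at 99.7% identity with AT2G46670, whose locus over most of that stretch had 1.07 FPKM in roots and 7.33 in leaves. RVE7 shares 1132 bases at 99.7% with AT3G10113. The values of AT3G10113, 7.87 FPKM in roots and 18.3 in leaves, with 4.77 in flowers and 11.7 in siliques, ran in the order of RVE7. CDF2 and BBX18 share shorter stretches with other loci, up to 212 bases in CDF2. The values of PRR9 and RVE7 are therefore uncertain.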

How the data were processed

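RNA of 4 organs was sequenced, 1 library each, from TruSeq RNA libraries on an Illumina HiSeq sequencer, per the labels' protocols. The submitters' processing notes name TopHat, Cufflinks and TAIR10. Their versions, the read totals and the confidence level of the intervals were not given in the sources used here. In the gene table, per the file headers, the authors deposited for each locus and library an FPKM, an interval around it and a status word (other than a number). Column initials gave the organ.

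Loci with an OK status in all 4 libraries (34071) and an FPKM of at least 1 in some organ (23477) were compared on log2(FPKM + 1); all 39 members were among them. Where a code had 2 loci the more abundant was used. Table starts were raised by 1 to count from 1. Phases come from general knowledge. The members and lists were chosen with earlier results of these data known. All members are named; of other clock genes, up to 4 per direction in each matched pair with the largest ratios past 2-fold.

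Of 32115 loci, 31593 (98.4%) overlapped the same code in TAIR10.1, whose genome gave the promoters. Copies were sought with blastn 2.17.0 (at least 50 bases, 95% identity). Python 3.11.15 and pandas 2.3.3 were used. Alternatives were pseudocounts, scaling, no filter, 4-fold, separate intervals, core members, the mean and, added after seeing the data, centring and leaving out members that share sequence.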

Additional observations from a re-analysis of the deposited data

How the results depend on the processing

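No paired analysis was possible because each organ has 1 library, and leaving out a replicate could not be done for the same reason. Of 96 recomputed values 63 were classed as unchanged, and 2 changed sign. Unchanged meant a count within 1.5 times the reported one, or a dawn minus evening difference moved by at most the log2 of 1.5. All 39 members passed the filter on low values, so the values without it were the same by construction. Scaling by 1 factor per organ nearly cancels in the dawn minus evening difference (-3.16 against -3.20 in roots), so those values could hardly change. Between roots and leaves, dawn members called lower (14) were 9 at 4-fold, 3 with separate intervals, 7 of 8 core members and 8 of 9 members left when those sharing sequence or an interval were dropped; dawn members called higher (1) were 0 under each of these. Evening members called higher (11) were 3 at 4-fold, 1 with separate intervals and 7 of 8 core members, and those called lower (1) were 0 under the same. Between flowers and siliques, dawn members called higher (4) were 2 at 4-fold and 2 without sharing members, and those called lower (2) were 1 with a pseudocount of 5 FPKM, 0 at 4-fold, with separate intervals and among core members, and 1 without sharing members. Evening members called lower (9) were 4 with a pseudocount of 5 FPKM, 3 at 4-fold, 1 with separate intervals and 4 of 8 core members. The fall in these counts at 4-fold, with intervals and with fewer members follows from their construction; for the pseudocount the cause was not tested. The dawn minus evening difference in roots (-3.20) was -2.41 with a pseudocount of 5 FPKM and -2.56 among core members. In leaves (0.88) it was 1.80 among core members and 2.63 without sharing members, and in flowers (1.43) 2.71 among core members. In siliques (0.18) it was 0.85 without sharing members, and it reversed to -0.63 with the mean and to -0.19 with centring; the cause was not tested. With no replicates and with most intervals reaching 0, only 5 of 117 neighbouring levels in the members' order of organs had separate intervals.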
